A study of Homo sapiens with 6 samples.

Results

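Genes of matrix glycoproteins and microfibrils, 10 in all, were examined for occupancy by ZNF469. They are FN1 (fibronectin), FBN1 and FBN2 (fibrillins), ELN (elastin), LTBP1 and LTBP2 (latent TGF-beta binding proteins), and the matricellular genes POSTN, TNC, THBS1 and THBS2. They were taken by name, with earlier results of these data known. A region counted as theirs when it overlapped the gene body, or the 20 kb on either side of it, by at least 1 bp. In all, 33 of the 19108 regions of full-length ZNF469 and 0 of the 54 regions of dZF-ZNF469 did so.

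The regions come from CUT&RUN, in which an antibody guides a nuclease that releases the DNA around its target for sequencing. LX-2 cells, a human hepatic stellate cell line, carried an HA-tagged piggyBac transgene under doxycycline control, and were selected with Geneticin and induced with 1 microgram/mL doxycycline for 24 h. The transgene was full-length ZNF469 in one group of 3 libraries (clone3.4) and dZF-ZNF469, in which most zinc fingers are deleted, in the other group of 3 libraries (clone3.1). Both groups were grown with a stable form of ascorbic acid and profiled with the same antibody, raised against a part of ZNF469 that both constructs keep, and no untreated group was analysed here. The antibody can also bind the endogenous protein, and each construct was read in its own line, so that construct and line cannot be told apart. The 3 libraries of a group were deposited as 1 peak list, so that no value per library, no replicate error and no test between the constructs could be given. The lists hold no expression values, so the stellate identity of the cells was not checked against marker genes.

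Fibronectin is the glycoprotein on which fibroblasts first lay down their matrix, and many other matrix proteins assemble on it. Fibrillins polymerize into microfibrils, which scaffold elastin in elastic fibres and hold the latent TGF-beta binding proteins, through which the matrix stores inactive TGF-beta. Matricellular proteins are secreted into the matrix to modulate how cells adhere and signal, and their genes are often induced when stellate cells turn into myofibroblasts.

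Each region is described by its summit pileup, the number of pooled fragments that cover its highest point, by the local background, the number of fragments the peak caller expected there, and by the fold of the caller, (pileup + 1)/(background + 1). The limits printed with a pileup are 95% exact Poisson limits. They cover counting error only, and fragments copied by PCR are not independent molecules.

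To show the DNA at the summits, the summit base and 50 bases on either side of it were read from the plus strand of hg38. Windows are shown for 8 of the 9 genes with a region, chosen for a summit near AP-1 letters (TGANTCA, which FOS and JUN dimers bind), for a high fold or pileup within their gene, or for lying at the start. Capitals mark matches to AP-1 letters, or, in FBN2, to the KLF/SP letters GGGCGG.
FN1 intron 13, chr2:215410978-215411078: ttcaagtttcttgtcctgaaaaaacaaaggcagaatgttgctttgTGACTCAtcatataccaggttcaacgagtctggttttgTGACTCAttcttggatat
FBN1 intron 4, chr15:48602883-48602983: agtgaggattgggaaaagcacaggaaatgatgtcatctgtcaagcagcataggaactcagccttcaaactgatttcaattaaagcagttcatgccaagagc
FBN1 at exon 57, chr15:48428044-48428144: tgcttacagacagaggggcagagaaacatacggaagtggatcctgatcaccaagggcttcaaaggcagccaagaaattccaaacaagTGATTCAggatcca
FBN2 at the start, chr5:128538330-128538430: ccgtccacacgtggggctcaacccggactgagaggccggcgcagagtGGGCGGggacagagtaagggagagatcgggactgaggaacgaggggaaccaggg
ELN downstream flank, chr7:74084604-74084704: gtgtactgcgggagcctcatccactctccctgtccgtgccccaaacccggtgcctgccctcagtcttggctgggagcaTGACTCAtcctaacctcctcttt
LTBP1 intron 7, chr2:33210781-33210881: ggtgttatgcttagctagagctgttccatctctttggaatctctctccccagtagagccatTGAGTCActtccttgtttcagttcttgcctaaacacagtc
LTBP2 intron 3, chr14:74572066-74572166: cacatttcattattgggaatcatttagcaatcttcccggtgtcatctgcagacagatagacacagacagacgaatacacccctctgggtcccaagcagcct
TNC upstream, chr9:115127350-115127450: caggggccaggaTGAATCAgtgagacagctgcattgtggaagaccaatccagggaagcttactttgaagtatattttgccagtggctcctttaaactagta
TNC near the start, chr9:115118947-115119047: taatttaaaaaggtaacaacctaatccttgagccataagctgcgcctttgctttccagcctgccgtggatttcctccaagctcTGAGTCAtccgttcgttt
THBS2 intron 17, chr6:169224430-169224530: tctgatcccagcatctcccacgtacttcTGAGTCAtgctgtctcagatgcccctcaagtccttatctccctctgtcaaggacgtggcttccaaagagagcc

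To ask how widely ZNF469 occupied these genes, the regions were counted per gene. Of the 10 genes, the bodies of 7 were crossed by at least 1 region of full-length ZNF469, against 33.7% of all 20007 protein-coding genes, and 9 had one in the body or the flanks, against 52% of all. The members are long genes (median 87.1 kb, against 27.5 kb over all), and long genes hold more regions. Each gene was therefore also set beside the protein-coding genes within 1.5 times its length. Among those, the share with a region in the body or the flanks ran from 49.7% (for THBS1) to 72.1% (for FBN2). FBN1 had the most regions in its body (9), followed by LTBP1 (4), TNC (3), FN1, FBN2 and THBS2 (2 each) and LTBP2 (1). ELN, POSTN and THBS1 had none in the body. Regions covered 0.745% of the summed length of the 10 genes, against 0.371% over all protein-coding genes. Without FBN1 the covered share was 0.478%.

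**Figure D1:**
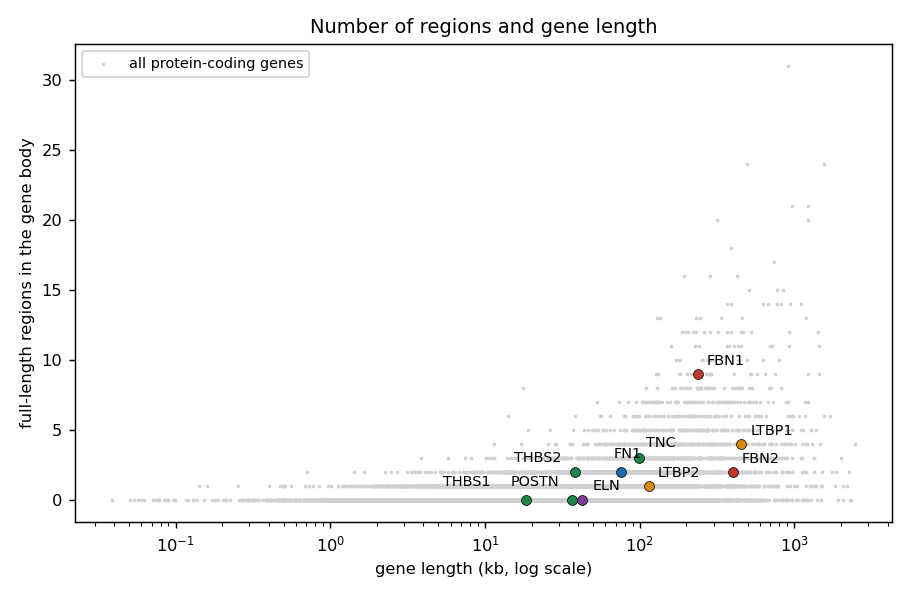
Full-length regions in the gene body (vertical axis) against gene length in kb (horizontal axis, log scale) for all protein-coding genes (grey) and the 10 members (coloured by family, named). FBN1 lies high among genes of its length with 9 regions, while ELN, POSTN and THBS1 lie at 0.

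FN1 (chr2:215360440-215436073, minus strand, 75.6 kb) held 2 regions and had none in its flanks. The first, chr2:215433580-215433921, had its summit 2.37 kb inside the gene in intron 2, with 28 fragments (18.6 to 40.5), a background of 3.83 and a 6-fold enrichment. The second, chr2:215410847-215411414, lay 25 kb inside the gene in intron 13, with 17 fragments (9.9 to 27.2), a background of 1.64 and an enrichment of 6.82. The limits of both pileups overlapped. The second region had an AP-1 match 2 bases from its summit, and its window holds 2 such matches. An annotated internal start of FN1 lay 1.08 kb from that summit. Among 3532 genes of similar length, 43.6% had a region and 17.5% had as many as FN1. Outside the flanks the nearest region was 92.3 kb away.

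FBN1 (chr15:48408313-48645721, minus strand, 237 kb), the gene for the main fibrillin of adult tissue, held 9 regions and had 1 more in the downstream flank. Only 0.47% of all protein-coding genes had 9 or more. Of the 1431 genes of similar length, 64% had a region, the median gene had 1, and 39 (2.73%) had as many as FBN1. The region nearest the start, chr15:48602600-48603064, lay 42.8 kb inside in intron 4, so the start and the sequence that follows it held no summit. It had 25 fragments (16.2 to 36.9) and a background of 1.73, and its fold of 9.52 was the highest of the gene.

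Intron 6 of FBN1, 58.5 kb long, held 5 regions. Their summits lay 53.3, 79, 79.6, 91.9 and 104 kb from the start, and their pileups were 32, 22, 23, 16 and 17 fragments over backgrounds of 1.39 to 2.72. The middle pair lay only 0.632 kb apart. The widest region of the 10 genes, chr15:48592206-48593371 with 1166 bp, was the first of these, and its fold was 8.87.

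The remaining 3 regions lay further downstream. The one in intron 23, 152 kb from the start, had 24 fragments (15.4 to 35.7) and a fold of 8.89. The region in intron 46, 198 kb from the start, had the lowest pileup of the gene, 13 fragments (6.92 to 22.2). The highest pileup of the gene was 34 fragments (23.5 to 47.5) over a background of 2.95, a fold of 8.87, at chr15:48427873-48428425. That region overlapped exon 57 of 66 near the 3' end. Annotated internal starts of FBN1 lay 0.483 kb from its summit and 2.68 kb from that of the intron 46 region. The flank region, 12.8 kb beyond the gene end, had 20 fragments (12.2 to 30.9).

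FBN2 (chr5:128257909-128659185, minus strand, 401 kb), the fibrillin gene used mainly in development, held 2 regions, and 69.6% of 777 genes of similar length had at least 1. Neither region lay within the canonical transcript, which begins at position 128538245 and runs over 65 exons. The first, chr5:128538290-128538756, had its summit 0.135 kb upstream of that start, with 17 fragments (9.9 to 27.2), a background of 1.45 and a fold of 7.34. Its GC content was 68.3%, against a median of 44.6% over the full-length list, and its window carries a KLF/SP match. The second, chr5:128578972-128580026, lay 41.1 kb further upstream, with 28 fragments (18.6 to 40.5), a background of 2.42 and a fold of 8.48. Only a longer annotated transcript of FBN2 reaches that far. Both regions also overlapped SLC27A6, a fatty acid transport gene that starts at position 128538013 on the opposite strand, so they cannot be assigned to FBN2 alone. The Poisson limits of the counts in the bodies of FBN1 (4.12 to 17.1) and FBN2 (0.242 to 7.22) overlap.

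ELN (chr7:74027789-74069907, plus strand, 42.1 kb) encodes elastin, the core of the elastic fibre. It held no region, and 35.7% of 4277 genes of similar length had one. Its downstream flank held 2 regions. The first, chr7:74079333-74079650, lay 9.55 kb beyond the gene end with 28 fragments (18.6 to 40.5) against an expected 1.76, and its fold of 10.5 was at or above that of 92.1% of the list. The second, chr7:74084348-74084778, lay 14.7 kb beyond the end with 15 fragments (8.4 to 24.7) and a fold of 7.16. It fell inside LIMK1, the gene of a kinase that stabilizes actin filaments, 0.663 kb from an annotated start. The first lay 3.47 kb from a start of LIMK1, so that the regions around ELN were both nearer to another gene.

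LTBP1 (chr2:32946953-33399509, plus strand, 453 kb), whose protein tethers latent TGF-beta to fibronectin and microfibrils, held 4 regions and had none in its flanks. Of 638 genes of similar length, 69.7% had a region and 24.9% had as many. The summits lay 65.2, 76.4, 123 and 264 kb from the start, in introns 2, 3, 3 and 7. Their pileups were 12 (6.2 to 21), 15 (8.4 to 24.7), 24 (15.4 to 35.7) and 20 fragments (12.2 to 30.9), and these limits all overlapped. The folds were 5.56, 6.44, 8.14 and 7.81. The region with 12 fragments was the lowest of the 33. All 4 regions held an AP-1 match, and in 3 of them it lay within 50 bases of the summit.

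LTBP2 (chr14:74498183-74612378, minus strand, 114 kb) encodes a relative that joins microfibrils but does not bind latent TGF-beta. It held 1 region, and 52.4% of 2891 genes of similar length had at least 1. This region, chr14:74572017-74572243 in intron 3, 40.1 kb from the start, had 33 fragments (22.7 to 46.3) where 1.97 were expected, and its fold of 11.5 was the highest of the 33, at or above that of 96% of the list. It held no AP-1 match. Upstream of LTBP2 a pair of regions lay 7.67 and 8.54 kb from the start, 0.873 kb apart, with 26 (17 to 38.1) and 20 fragments (12.2 to 30.9). The region in the downstream flank, with 18 fragments (10.7 to 28.4), lay 0.02 kb from a start of NPC2, a lysosomal cholesterol transport gene, and also overlapped ISCA2.

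**Figure D2:**
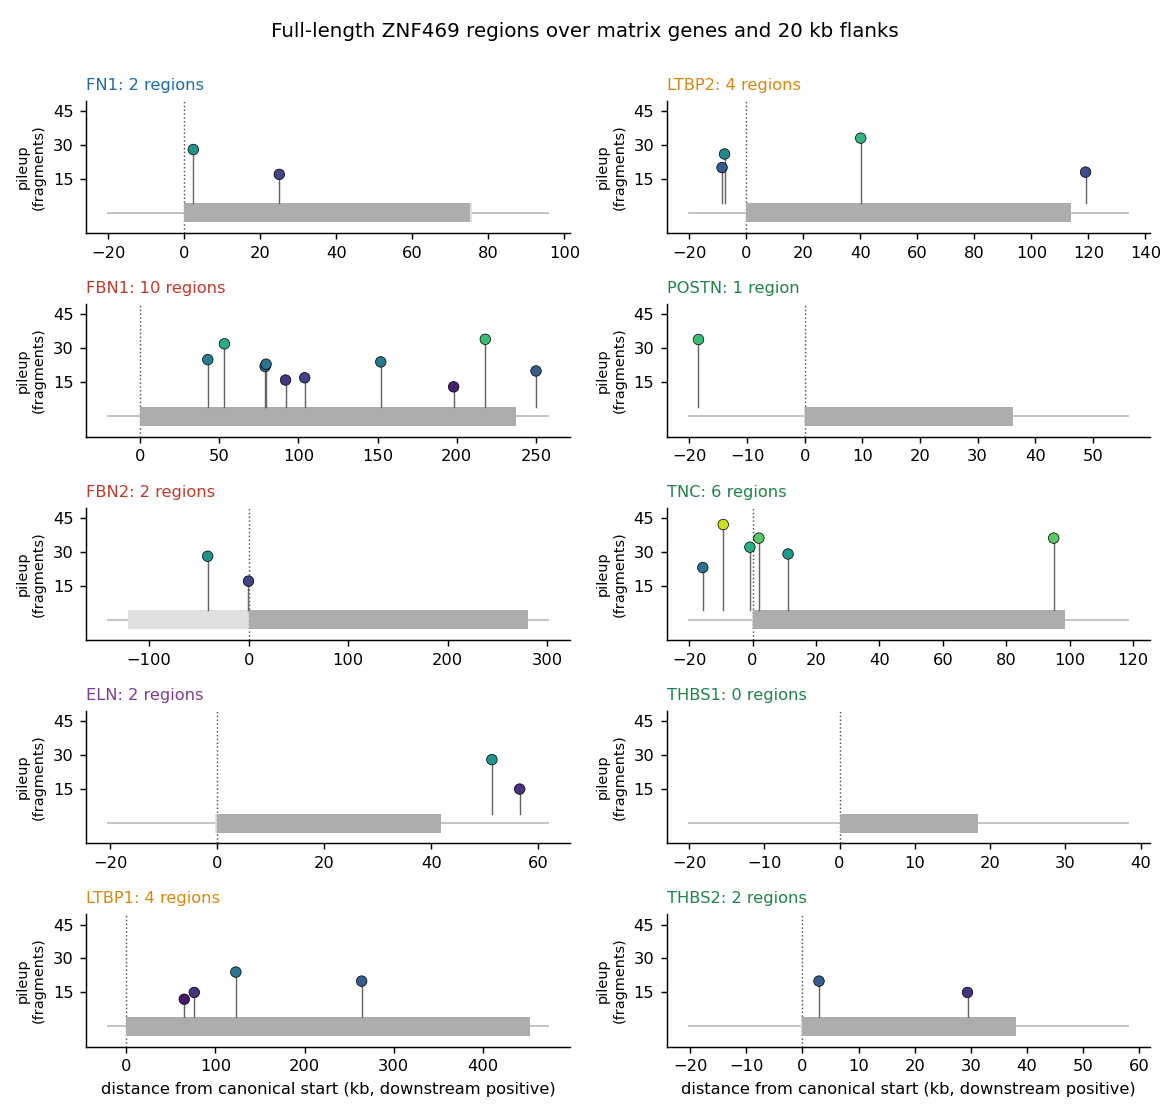
Each panel shows 1 gene, with the distance of the summit from the canonical start in kb on the horizontal axis (downstream positive) and the summit pileup in fragments on the vertical axis and in the colour of the point. Darker bars are the canonical transcript, lighter bars the rest of the annotated body, and thin lines the 20 kb flanks. The FBN1 regions run through the gene body, and the THBS1 panel is empty. Those of TNC lie from 15.7 kb before its start to 11.2 kb inside, and again at 95 kb near its end.

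Among the matricellular genes, POSTN (chr13:37562583-37598844, minus strand, 36.3 kb), which encodes the collagen-binding protein periostin, held no region, and 33.9% of 4391 genes of similar length had one. The single region in its flanks, chr13:37617083-37617634, lay 18.5 kb upstream of the start, near the edge of the flank, with 34 fragments (23.5 to 47.5) where 3.02 were expected, an enrichment of 8.71. That pileup was at or above that of 89.4% of the list. No annotated gene overlapped the region, and the nearest start of a protein-coding gene was that of POSTN.

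TNC (chr9:115019575-115118207, minus strand, 98.6 kb), the gene of the wound and tumour matrix protein tenascin-C, had 3 regions in the body and 3 in the upstream flank. Of 3116 genes of similar length, 49.6% had a region and 10.7% had 3 or more. In the upstream flank the summits lay 15.7, 9.24 and 0.84 kb before the start, with 23 (14.6 to 34.5), 42 (30.3 to 56.8) and 32 fragments (21.9 to 45.2). In the body they lay 1.99, 11.2 and 95 kb from the start, with 36 (25.2 to 49.8), 29 (19.4 to 41.6) and 36 fragments (25.2 to 49.8). All 6 pileups were above the list's median of 20 fragments, and the one with 42 was the highest of the 33.

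The pair that flanks the TNC start had the highest backgrounds of the 33, 5.99 and 5.8 fragments, and the lowest folds, 4.72 and 5.44. Over the full-length list 3.59% of the regions had a background above 5 fragments. The region 9.24 kb upstream, chr9:115127048-115127595, had a background of 3.03 and an enrichment of 10.7. The region 95 kb inside the gene, in intron 27 of a transcript with 28 exons, had a background of 2.97 and an enrichment of 9.33. A long noncoding RNA gene on the opposite strand, DELEC1, spans all 6. A further long noncoding RNA gene overlapped the regions 15.7 and 9.24 kb upstream.

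THBS1 (chr15:39581079-39599466, plus strand, 18.4 kb), which encodes thrombospondin-1, an activator of latent TGF-beta, had no region in its body or its flanks. It was the only 1 of the 10 without any. Of 4046 genes of similar length, 26.9% had a region in the body and 49.7% had one in the body or flanks, so an empty gene of this length is common. The nearest region lay 25.3 kb away.

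THBS2 (chr6:169215780-169254050, minus strand, 38.3 kb), the gene of the related thrombospondin-2, held 2 regions that covered 2.45% of its length, the largest share of the 10 genes. Of 4361 genes of similar length, 34.4% had a region and 8.74% had 2 or more. The first, chr6:169250619-169251017, overlapped exon 2, 2.95 kb from the canonical start, with 20 fragments (12.2 to 30.9), a background of 2.15 and an enrichment of 6.66. The second, chr6:169224225-169224764 in intron 17, had 15 fragments (8.4 to 24.7), a background of 1.28 and a fold of 7.03. Both held an AP-1 match, 11 and 19 bases from the summit. Other annotated starts of THBS2 lay 0.034 and 1.04 kb from these summits. The second region also overlapped THBS2-AS1, a long noncoding RNA gene on the opposite strand. In THBS1 and THBS2, 1 family of proteins thus held genes with and without regions, a difference of 2 against 0 counts whose Poisson limits (0.242 to 7.22 and 0 to 3.69) overlap.

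**Figure D3:**
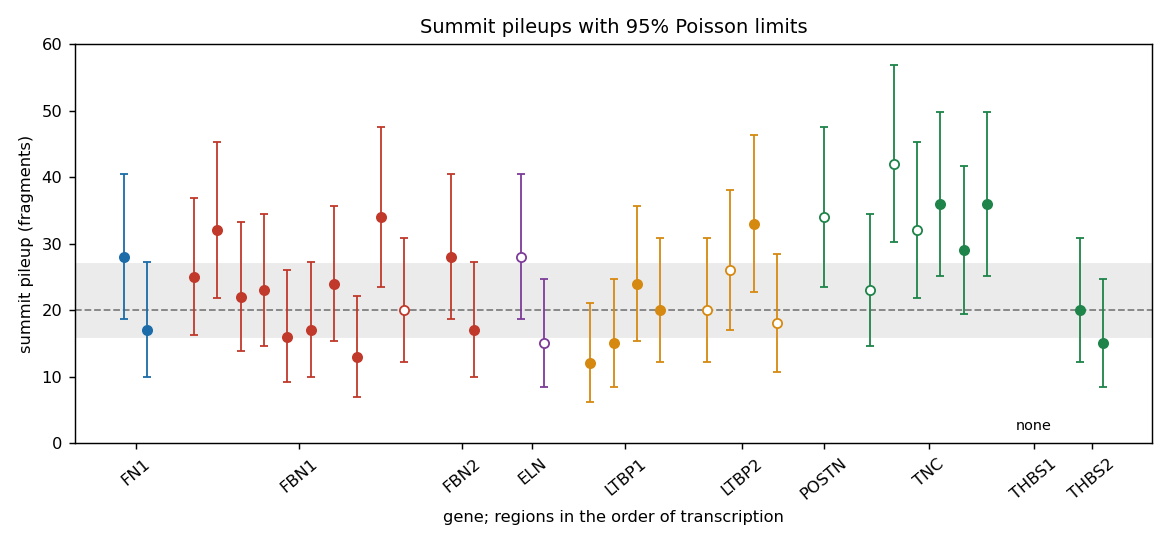
Summit pileup in fragments (points) with 95% Poisson limits (bars) of each of the 33 regions, by gene in the order of transcription. Filled points lie in gene bodies and open points in flanks, the dashed line is the median of the full-length list (20 fragments) and the grey band its quartiles (16 to 27). The points of TNC lie above the dashed line and those of LTBP1 and THBS2 lie in or under the band.

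To compare the families, the regions were pooled by role. The median pileup was 32 fragments over the 9 matricellular regions (range 15 to 42), 22.5 over the 12 fibrillin regions (13 to 34), 22.5 over the 2 of FN1, 21.5 over the 2 near ELN and 20 over the 8 of the latent TGF-beta binders (12 to 33). The median backgrounds were 3.02, 1.77, 2.73, 1.5 and 1.84 fragments. In the same order the median folds were 7.28, 7.65, 6.41, 8.83 and 7.4, so the matricellular regions did not lead in fold. The matricellular median rested on TNC, which gave 6 of those 9 regions. The ranges of the families overlap, and regions of 1 gene share their neighbourhood, so no test was made between families.

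Over the 33 regions the median pileup was 23 fragments (quartiles 17 and 29), against 20 (16 and 27) over the whole list. The median background was 2.07 against 1.82 fragments, and the median fold was 7.34 against 7.36. The pileup of 19 of the 33 regions (57.6%) was above the list's median, as was that of 49.4% of the list. None of the 33 was among the 100 highest pileups of the list. The score of the lists, which rises as a region is ranked more alike in the replicates, was at its ceiling of 1000 in 13 of the 33 regions (39.4%, 95% Wilson interval 24.7% to 56.3%) and in 33% of the list.

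For scale, the regions were set beside those of COL1A1 and COL3A1, the genes of type I and type III collagen, picked after their values were seen. Other collagen genes were not compared here. COL1A1 held 8 regions with pileups of 79 to 138 fragments over backgrounds of 21.3 to 44, and COL3A1 held 6 with pileups of 68 to 277 over backgrounds of 14.7 to 31.9. The lower limit of the lowest COL1A1 pileup, 62.5 fragments, was above the upper limit of the highest of the 33, 56.8. The lower limit of the lowest COL3A1 pileup, 52.8, was not. The folds stood in another order. They were 2.35 to 4.45 in COL1A1, all under the lowest of the 33 (4.72). In COL3A1 they were 2.62 to 8.54, and the median of 4.56 was also under the 7.34 of the 33. The fold divides by the local background, which was 14.7 or higher in both collagen genes. Whether occupancy around the summits raised that background was not tested, so the lower folds do not show weaker occupancy. Regions covered 19.1% of COL1A1 and 8.66% of COL3A1, against at most 2.45% of any of the 10 genes.

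**Figure D4:**
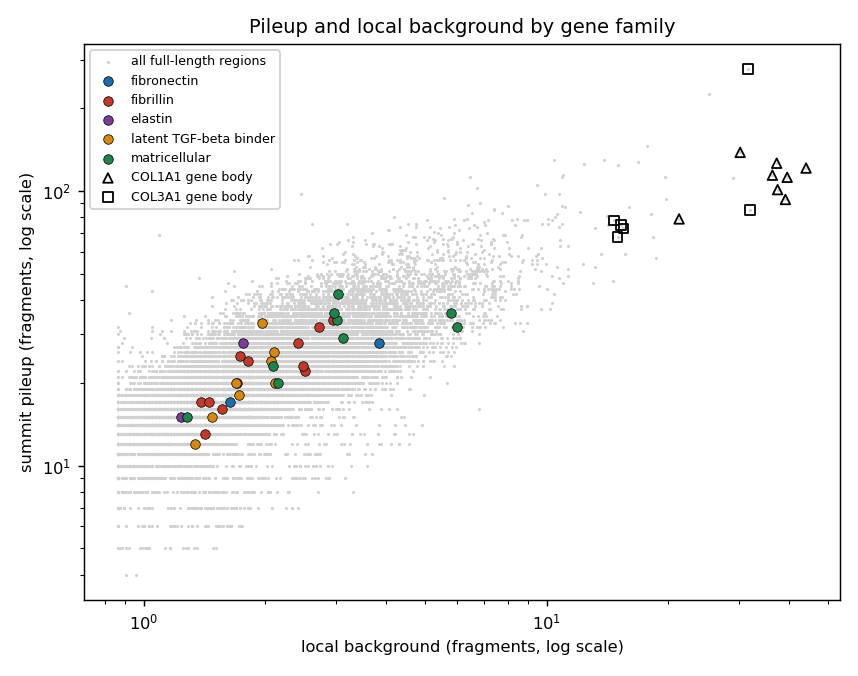
Summit pileup against local background, both in fragments on log scales, for all full-length regions (grey), the 33 regions of the 10 genes (coloured by family) and the regions in the bodies of COL1A1 (triangles) and COL3A1 (squares). The 33 regions lie within the grey cloud at backgrounds of 1.24 to 5.99, and the collagen regions lie at backgrounds of 14.7 and higher.

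Position along the gene was examined because the study asks how ZNF469 is spread over gene bodies. Of the 33 regions, 23 lay in a gene body, 6 in an upstream flank and 4 in a downstream flank. With each body cut into 3 parts of equal length, 13 of 23 summits (56.5%, 95% Wilson interval 36.8% to 74.4%) fell in the first part, 6 in the next and 4 in the last. Over the 10821 summits in bodies of all protein-coding genes, 42.9% fell in the first part, a share inside that interval. Without the FBN2 regions, which lie before its canonical start, the count was 11 of 21. In the first part, 1 FBN1 summit lay at 33.3% and 1 FN1 summit at 33.1% of the gene length, both next to the boundary. Within 3 kb of a canonical start there were 5 summits, at FN1, FBN2, THBS2 and, with 2, TNC. Of the 33 regions, 2 overlapped an exon of their gene's canonical transcript, FBN1 exon 57 and THBS2 exon 2, and the other 21 body regions lay in introns or, for FBN2, before the canonical start.

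By annotation class, in which a promoter is the 3 kb on either side of any annotated transcript start, 12 of the 33 were in promoters (36.4%, 95% Wilson interval 22.2% to 53.4%), against 39.3% of the list. Introns held 16 (48.5%, 32.5% to 64.8%), against 35.8%, and distal intergenic sequence held 4 (12.1%, 4.82% to 27.3%), against 21.6%. The remaining region, 9.24 kb upstream of TNC, was classed as exon, since it overlapped an exon of a noncoding RNA gene. Of the 12 in promoters, only 5 were near the canonical start of a member, and the rest lay at internal starts or at starts of neighbouring genes.

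The letters of 5 motifs were searched on both strands. AP-1 letters were found in 21 of the 33 regions (63.6%, 95% Wilson interval 46.6% to 77.8%), against 56.1% of the list. Within 50 bases of the summit they were found in 12 (36.4%, 22.2% to 53.4%), against 25.9% of the list and 3.09% of windows of the same length 2 kb to either side of the list's summits. By family they were in 2 of 2 regions of FN1, 4 of 12 of the fibrillins (13.8% to 60.9%), 2 of 2 near ELN, 6 of 8 of the latent TGF-beta binders (40.9% to 92.9%) and 7 of 9 of the matricellular genes (45.3% to 93.7%). These intervals overlap, and each holds the share of the list.

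TEAD letters (GGAATG, bound by the partners of YAP) were found in 10 regions (30.3%, 17.4% to 47.3%), against 35.6% of the list. RUNX letters (TGTGGT) were found in 14 (42.4%, 27.2% to 59.2%), against 31.7%. KLF/SP letters were found in 3 (9.09%, 3.14% to 23.6%), against 20.3%, and SMAD letters (GTCTAGAC or GGCGCC) in 2 (6.06%, 1.68% to 19.6%), against 7.87%. For all 5 motifs the share of the list lay inside the interval of the 33 regions, so a difference from the list was not detectable with so few. The regions are wider than a binding site, and a match shows letters, not a bound factor.

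No region of dZF-ZNF469 lay in or within 20 kb of any of the 10 genes, and 0.125% of all protein-coding genes had one in such a window. The nearest dZF region lay 7316 kb from FN1, and the chromosome of TNC held none. The lists may differ in depth, for which the files hold only an indirect measure, the lowest background. It was 0.625 fragments for dZF-ZNF469 and 0.865 for full-length ZNF469, a ratio of 1.38. With pileups and backgrounds of the 33 regions lowered by this ratio, the −log10 p ran from 6.07 to 24.3, with a median of 11.3. Of these values 31 were above 7.62, the lowest in the dZF list, and 1 was above 22, the median of that list. The lowest value of a list is not a calling threshold, and the full-length list itself reached down to 2.16. The values therefore do not tell how many regions would be called at the dZF depth. The part of depth in the absence of dZF regions was not tested. A dZF region must also rank alike in its replicates, which this scaling does not imitate.

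Finally, 25 further genes of elastic fibres, microfibrils and matricellular proteins were counted. Regions of full-length ZNF469 lay in the bodies of 11 (44%) and in the bodies or flanks of 15 (60%), against 33.7% and 52% of all protein-coding genes, and no dZF region lay at any of the 25. Regions covered 0.404% of their summed length, against 0.371% over all protein-coding genes. The median length of the 25 was 36.9 kb, against 27.5 kb over all, and they were not set beside genes of similar length. SPARC, whose protein chaperones collagen, and VCAN, the gene of the proteoglycan versican, held 3 regions each in the body, the most of the 25. With the flanks counted, SPARC had 8 and EFEMP2 and TGFBI had 5 each, while VCAN stayed at 3. The pileups were 24 to 49 fragments in SPARC and 12 to 25 in VCAN. CCN1, a matricellular target gene of YAP and serum response factor chosen here after its value was seen, held 1 region with 76 fragments over a background of 10.9. Relatives of the 10 genes were mixed, with no region in the body of FBN3, LTBP4, TNR, TNN, THBS3 or COMP, 1 in LTBP3 and 2 each in TNXB and THBS4.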

How the data were processed

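ZNF469 CUT&RUN was measured in 6 LX-2 libraries, 3 per construct, grouped by their titles. Per the submitters' processing notes the authors used bcl2fastq, Bowtie2 2.3.4.3 and MACS2 2.2.5 with hg38. They deposited 1 narrowPeak list per group, filtered by irreproducible discovery rate, with a score, a fold (ratio of pileup to background), a −log10 p and a summit position for each record. The −log10 q was not used, and reads per library are unknown.

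From the deposited fold and −log10 p, the whole-number pileup and the background were solved with the Poisson tail of the caller (pseudocount 1). A whole pileup within 0.002 in −log10 p was found for 100% of the records of both lists, and for 100% of 1000 simulated full-length records the right pileup was returned. Genes and transcripts were from GENCODE 44. The members and lists were chosen with earlier results of these data known. All 10 members were named. By rule, records highest in pileup in their gene or nearest its start were to be given in full. For those of LTBP1, and those nearest the starts of LTBP2 and TNC, coordinates or other values were left out. Of the other matrix genes, those with the most records in the body were named, and EFEMP2 and TGFBI for their count with the flanks. Further records were given to account for every region, chosen after their values were seen. Tools were Python 3.11.15, scipy 1.17.1, pysam 0.24.0 and samtools 1.23.1. No test was made between groups, since each has 1 list.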

Additional observations from a re-analysis of the deposited data

How the results depend on the processing

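Of 53 recomputed values for the 10 results, 43 were planned and 10 were chosen after seeing the data (the canonical span, and leaving out FBN1 or TNC). In 43 of the 53 the value stayed within the range set for it. For counts and the covered share this was 1.5 times, and for other shares the 95% Wilson interval. For medians of pileup, background and fold it was the relative Poisson limits of a single pileup of 23 fragments. Those limits are wide and are not the error of a median, so the medians were held to a lenient rule. Stricter lists held fewer regions, as they hold fewer records: 16 regions and 0.364% of the gene length in the upper 50% by fold, 10 regions, 0.236% and 5 genes in the upper 25% by fold, and 12 regions and 0.3% in the upper 25% by pileup. The gene bodies without flanks held 23 regions, in 7 genes. The canonical transcripts without flanks held 21, in 6 genes. The further 2 were the FBN2 regions before its canonical start. Without FBN1 the covered share was 0.478%. AP-1 letters within 50 bases of the summit, a shorter window, were in 36.4% of the regions. The dZF count was 0 under all 6 of its alternatives, which are among the 43 values that stayed within range. Only the flank of 50 kb could have raised it, since the others narrow a count that was already 0. No paired analysis was possible because the replicates of a construct share a single list, and for that reason no library could be left out. Depth limits the comparison of single regions: the 95% Poisson limits of 1 pileup of 23 fragments run from 14.6 to 34.5.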

Other observations

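The surroundings of the 3 genes without a region in the body were read out to 100 kb. Downstream of THBS1 there were 3 regions, 25.4, 42.7 and 58.6 kb beyond the gene end, with 14, 29 and 17 fragments over backgrounds of 1.36, 2.34 and 1.56, and none upstream. All 3 lay in FSIP1, a gene on the opposite strand whose end overlaps THBS1. Upstream of POSTN, beyond the flank, 1 region, 57.7 kb from the gene, lay in the cation channel gene TRPC4, with 29 fragments over a background of 3.21. Beyond the flank of ELN 1 region, 28.4 kb from the gene end, lay in LIMK1 with 17 fragments over a background of 1.57. The chromosomes of the members carried between 4.7 (chromosome 13, POSTN) and 9.03 (chromosome 5, FBN2) full-length regions per Mb.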
